A study of Mus musculus with 2 samples.

Results

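Creatine kinases and the genes that supply their substrate form a group of 7 genes, measured here in the heart of the mouse embryo at embryonic day 14.5. The group holds the 4 creatine kinase genes Ckm, Ckb, Ckmt1 and Ckmt2, and the 3 supply genes Slc6a8, Gatm and Gamt. The members were chosen by symbol from the gene tables, and all 7 were found among 43346 gene rows, each as a single row. Of the 7, 6 reached a level of at least 1 TPM (a unit scaled per transcript length and to the sum of all transcripts) in both hearts, as did 13635 of the 43346 genes.

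The study sequenced total RNA from hearts of mice of the strain B6NCrl, with no allele or treatment named. There was 1 group of 2 libraries, each given by the labels as a single heart. Replicate 1 was collected on day 15 and replicate 2 on day 17 of July 2014, so heart and collection day cannot be told apart. The labels give both as pup 1 of pregnant 2 and as pooled male and female. These labels conflict for a single embryo, so whether each library holds 1 embryo is not settled. Each library used 10 ng of RNA longer than 200 nt with spike-in RNAs. A whole heart mixes chambers and cell types, and fewer cells of a type and less RNA per cell cannot be told apart in any value below.

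The libraries held 2.75e+07 and 2.79e+07 estimated counts on gene rows. All 10 cardiomyocyte markers passed 1 TPM in each heart, led by Actc1, cardiac actin, at 11908 TPM, and their summed levels were 38043 and 37746 TPM. The libraries stood apart in the 9 red cell markers, led by Hba-a2, an alpha-globin, at 20879 TPM, whose sums were 61159 and 34777 TPM in replicates 1 and 2. With 2 libraries the smallest p of an exact sign permutation test is 0.5, so no p-value is given.

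Creatine kinases move phosphate reversibly between ATP and creatine. Cells with a high and changing demand for energy, such as heart muscle, brain and skeletal muscle, use phosphocreatine as a store and as a carrier of that phosphate. The mitochondrial kinases sit in the intermembrane space beside the adenine nucleotide translocase and form phosphocreatine from newly made ATP. The cytosolic kinases use it to rebuild ATP beside myosin and ion pumps. Creatine itself is made in a pair of steps. Gatm (arginine:glycine amidinotransferase) joins parts of arginine and glycine into guanidinoacetate, and Gamt (guanidinoacetate N-methyltransferase) methylates it. Creatine made in other organs, chiefly kidney and liver in the adult, enters muscle through the plasma membrane transporter Slc6a8.

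The 4 kinases are paralogs, and a stretch of 90 coding bases where they are most alike is shown because it is here that the 4 genes come closest to each other. Each line is the coding strand of the annotated transcript (GENCODE M21, GRCm38), 5′ to 3′, and capitals mark the 61 bases that all 4 share.
Ckm: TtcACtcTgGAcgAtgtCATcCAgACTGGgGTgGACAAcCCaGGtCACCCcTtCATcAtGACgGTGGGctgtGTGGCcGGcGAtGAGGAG
Ckb: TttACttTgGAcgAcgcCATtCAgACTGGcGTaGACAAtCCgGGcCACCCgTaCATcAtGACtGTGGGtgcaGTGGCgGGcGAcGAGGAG
Ckmt1: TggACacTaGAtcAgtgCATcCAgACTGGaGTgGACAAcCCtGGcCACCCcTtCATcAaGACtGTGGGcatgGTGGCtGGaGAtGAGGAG
Ckmt2: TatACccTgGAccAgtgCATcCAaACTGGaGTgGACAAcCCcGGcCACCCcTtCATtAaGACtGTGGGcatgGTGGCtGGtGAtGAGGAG
These are coding bases 151 to 240 of Ckm and Ckb and 253 to 342 of Ckmt1 and Ckmt2. Even here, each of the other 3 kinases matched Ckm at 71 of the 90 bases. Over the whole reading frame Ckm and Ckb, each of 381 codons, were identical at 76.4% of 1143 aligned bases. The mitochondrial pair, of 418 codons for Ckmt1 and 419 for Ckmt2, was identical at 71.6% of 1256 aligned bases. A cytosolic and a mitochondrial kinase were identical at 66.5% to 68.2% of aligned bases. The longest run of bases that Ckm shares with Ckb is 20, and Ckmt1 shares a run of 39 with Ckmt2.

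Ckm was the most abundant of the 7 genes. It encodes the muscle form of the cytosolic enzyme, which binds the M-band of the sarcomere. Its gene lies on chromosome 7 from 19404776 to 19422841 on the plus strand (GRCm38, the build of all coordinates here, with gene models of GENCODE M21). Ckm stood at 646 and 547 TPM in replicates 1 and 2 (597 ± 70.4, SD, n = 2), from 17801 and 15138 estimated counts. This placed it at rank 195 of 21474 protein-coding genes.

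Ckb encodes the brain form of the cytosolic enzyme, which is also the form of many embryonic tissues and smooth muscle. The gene lies on chromosome 12 from 111669361 to 111672338 on the minus strand. Its levels were 202.53 and 202.45 TPM (202.49 ± 0.0566, SD, n = 2), at rank 614 of the protein-coding genes. Ckb was below Ckm in both hearts. The log2 ratio of Ckm over Ckb was 1.67 in replicate 1 and 1.43 in replicate 2 (1.55 ± 0.17, SD, n = 2), a 2.94-fold higher level of Ckm.

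Ckmt2, the sarcomeric mitochondrial kinase of heart and skeletal muscle, lies on chromosome 13 from 91853387 to 91876885 on the minus strand. It stood at 23.5 and 25.1 TPM (24.3 ± 1.10, SD, n = 2), from 683 and 732 estimated counts. Ckm was 24.5-fold and Ckb 8.33-fold above it. Ckmt1, the ubiquitous mitochondrial kinase of brain, gut and other epithelia, lies on chromosome 2 from 121357714 to 121363737 on the plus strand. It was the only member below 1 TPM, at 0.33 and 0.56 TPM (0.445 ± 0.163, SD, n = 2). These values rest on 5 and 14 counts, with exact Poisson 95% intervals of 1.62 to 11.7 and 7.65 to 23.5 counts that cover counting error only. By the deposited posterior mean TPM, Ckmt1 stood at 1.175 ± 0.191 TPM (SD, n = 2), so that its place below 1 TPM depends on the estimate used. Part of the posterior value lies on transcripts with 0 expected counts. Ckmt1-203, with posterior counts of 0 and 0.2, held 9.62% and 9.16% of it.

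The 2 mitochondrial forms therefore differed widely in both hearts. The log2 ratio of Ckmt2 over Ckmt1 was 6.16 and 5.49 (5.82 ± 0.47, SD, n = 2), or 56.5-fold. With a pseudocount of 1 TPM in both terms it was 4.13, since Ckmt1 is so low. The cytosolic kinases together exceeded the mitochondrial kinases together by a log2 ratio of 5.15 and 4.87 (5.01 ± 0.20, SD, n = 2), or 32.2-fold. TPM counts transcripts, and neither protein nor enzyme activity was measured.

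The 4 kinases summed to 873 and 775 TPM in replicates 1 and 2, and held 0.0886% and 0.0779% of all gene counts. The Wilson 95% intervals of these shares are 0.0875% to 0.0897% and 0.0769% to 0.0789%, for counting error only. They say nothing of the spread between hearts. Of the kinase transcripts, Ckm made up 74.1% and 70.6%, Ckb 23.2% and 26.1%, Ckmt2 2.70% and 3.24%, and Ckmt1 0.0378% and 0.0723%. The order of the forms was the same in both hearts, with the share of Ckm higher in replicate 1 and that of each other form higher in replicate 2.

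**Figure D1:**
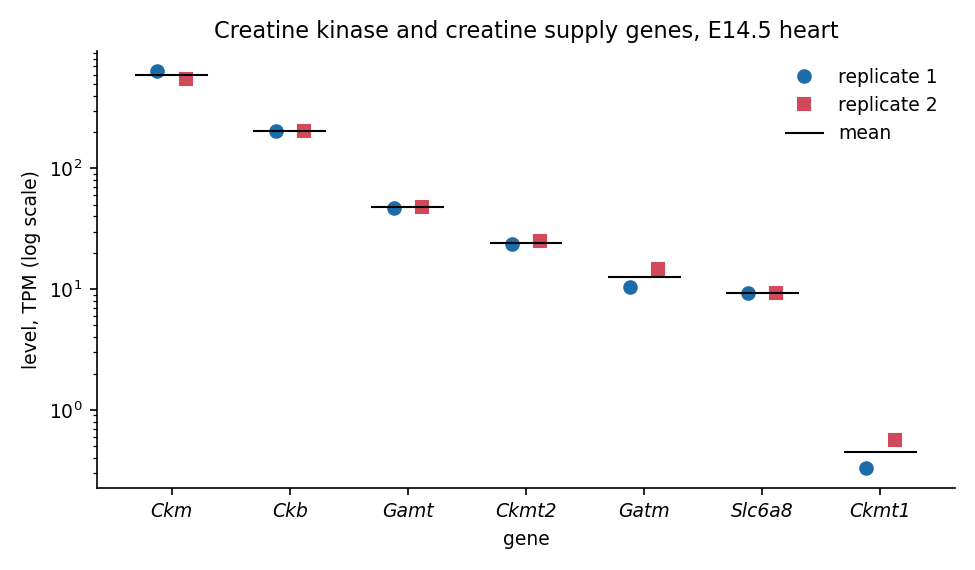
Level of each gene in TPM (log axis) in replicate 1 (circles) and replicate 2 (squares), with the mean of both as a line. The genes fall from Ckm at 597 TPM to Ckmt1 at 0.445 TPM, and the symbols of a gene lie close together on this scale except those of Gatm and Ckmt1.

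The bases just upstream of the annotated starts of the kinases are shown because the levels of the 4 genes differ so widely. The sequences are those of RefSeq (GRCm38.p6), 5′ to 3′ on the strand of the gene, and end at the base before the annotated start. For Ckm, the window ends before the GENCODE M21 start of Ckm-201, which lies 31 bases before the RefSeq start and 6287 nt into the Ckm gene span. Capitals mark matches to an E-box (CANNTG), a TATA box (TATAAA), the MEF2 motif or the CArG box on either strand.
Ckm, chr7:19410844-19411062, plus strand: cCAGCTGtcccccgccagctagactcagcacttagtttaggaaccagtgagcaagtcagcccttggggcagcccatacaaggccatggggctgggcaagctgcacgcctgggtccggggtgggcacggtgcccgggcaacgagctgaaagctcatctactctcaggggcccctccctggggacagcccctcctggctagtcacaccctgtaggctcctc
Ckb, chr12:111672339-111672588, minus strand: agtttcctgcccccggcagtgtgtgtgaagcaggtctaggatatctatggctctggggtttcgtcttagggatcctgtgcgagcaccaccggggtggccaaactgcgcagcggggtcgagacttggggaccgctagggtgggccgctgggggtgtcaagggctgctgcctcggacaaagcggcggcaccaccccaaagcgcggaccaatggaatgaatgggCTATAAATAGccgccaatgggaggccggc
Ckmt2, chr13:91876886-91877135, minus strand: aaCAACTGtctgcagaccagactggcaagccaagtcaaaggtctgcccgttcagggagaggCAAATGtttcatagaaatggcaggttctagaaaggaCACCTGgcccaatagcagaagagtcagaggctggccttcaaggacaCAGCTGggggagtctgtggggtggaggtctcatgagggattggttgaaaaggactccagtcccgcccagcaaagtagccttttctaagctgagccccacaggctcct
Ckmt1, chr2:121357526-121357775, plus strand: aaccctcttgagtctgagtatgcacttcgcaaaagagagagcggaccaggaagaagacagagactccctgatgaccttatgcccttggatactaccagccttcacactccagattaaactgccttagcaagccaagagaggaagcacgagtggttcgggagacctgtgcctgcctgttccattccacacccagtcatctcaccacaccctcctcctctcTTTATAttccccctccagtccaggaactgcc
The window of Ckb held a TATA box that begins 28 bases before the start and lies within a match to the MEF2 motif, which makes the 2 matches a single stretch. Of 32851 windows of 250 bases in the table, 12.4% held a TATA box and 2.92% a MEF2 match. Ckb also held 2 CCAAT boxes (CCAAT), as did Ckmt2, and 33.8% of the windows held at least 1. The Ckmt2 window held 4 E-boxes and 1 GC box (GGGCGG), against 66.2% and 32.7% of windows with at least 1. In Ckmt1, a TATA box match on the opposite strand began 31 bases before the start. The Ckm window of 219 bases held 1 E-box, at its far end, and no TATA box. It leaves out the 31 bases next to the RefSeq start, so a TATA box there would not be seen. Of all windows cut in the same way, without the 31 bases nearest the RefSeq start, 62.0% held an E-box and 9.92% a TATA box. No window held a CArG box, which 1.47% of windows of 250 bases held. GC content was 64.8% for Ckm, 62.8% for Ckb, 54.0% for Ckmt2 and 52.8% for Ckmt1, against a median of 52.4% over all windows. No binding or chromatin data were analysed here, and a match of letters is a description of the sequence.

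Among the supply genes, Gamt, the methyltransferase of the final step, was the most abundant. Its gene lies on chromosome 10 from 80258151 to 80261012 on the minus strand. It stood at 47.1 and 47.9 TPM (47.5 ± 0.544, SD, n = 2), at rank 2624 of the protein-coding genes. Gatm, the enzyme of the first step, lies on chromosome 2 from 122594467 to 122611303 on the minus strand. It stood at 10.3 TPM in replicate 1 and 14.8 TPM in replicate 2 (12.5 ± 3.12, SD, n = 2), from 490 and 663 counts. The log2 ratio of Gamt over Gatm was 2.19 and 1.70 (1.94 ± 0.35, SD, n = 2), or 3.85-fold, with Gamt higher in both hearts.

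The transporter gene Slc6a8 lies on the X chromosome from 73673150 to 73682502 on the plus strand. It stood at 9.31 and 9.21 TPM (9.26 ± 0.0707, SD, n = 2), from 552 and 559 counts. Its log2 ratio over Gatm was -0.15 in replicate 1 and -0.68 in replicate 2 (-0.42 ± 0.37, SD, n = 2). The 3 supply genes together stood at 66.8 and 71.9 TPM, below the level of Ckb alone.

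The 7 genes were ordered Ckm, Ckb, Gamt, Ckmt2, Gatm, Slc6a8 and Ckmt1 by mean level. Neighbours were called apart when the same gene was higher in both hearts by a mean log2 ratio above 0.67 (1.60-fold), the 95th percentile of the TPM differences between the hearts over genes whose mean level reached 1 TPM, with no minimum count. By this rule Gatm and Slc6a8, at 1.33-fold, were not told apart, and the other 5 pairs of neighbours were. The closest of these 5 were Gamt over Ckmt2 at 1.96-fold and Ckmt2 over Gatm at 1.97-fold. The rule was applied to gene totals only. By coding transcripts alone Slc6a8 stood at 3.44 and 3.54 TPM and Gatm at 10.2 and 13.5 TPM in replicates 1 and 2.

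The level of Slc6a8 rested mainly on a transcript that is not annotated as coding for the transporter. Of its 13 tabled transcripts, Slc6a8-202, with the annotated biotype nonsense-mediated decay (a transcript whose stop codon lies early enough to mark it for breakdown), held 59.0% of the gene's TPM in replicate 1 and 56.2% in replicate 2 (57.6% ± 2.00, SD, n = 2). The coding transcripts Slc6a8-203 and Slc6a8-201 held 25.8% and 23.1%, and 10.1% and 15.3%. All coding transcripts together held 36.9% and 38.4% of the TPM, or 3.44 and 3.54 TPM. By estimated counts, which weigh long transcripts more, their share was 43.7% and 46.3%.

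Slc6a8-202 begins 3696 nt into the gene, inside the third exon of Slc6a8-203, and runs 9 bases past that exon's splice site. Its other 10 exons are all exons of Slc6a8-203, which has 13. The first exon is shown because the 9 bases in capitals, which hold the annotated stop codon, are what sets the transcript apart in sequence.
Slc6a8-202 first exon, chrX:73676846-73676908, plus strand: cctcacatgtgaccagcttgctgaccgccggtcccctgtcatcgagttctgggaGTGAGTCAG
Among the 2705 possible 25-base words of Slc6a8-202, 32 (1.18%) occur in neither Slc6a8-201 nor Slc6a8-203. Slc6a8-203 has no 25-base word of its own against the other 2, while 17.1% of the words of Slc6a8-201 are its own. The share given to Slc6a8-202 in the deposited tables is thus an estimate for a transcript whose sequence is nearly all held by coding transcripts as well. The deposited posterior count of Slc6a8-202 was 315 with a posterior SD of 27.7 in replicate 1, and 307 with an SD of 29.8 in replicate 2. Whether coverage along the gene differed from even was not tested, since the tables hold no reads.

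**Figure D2:**
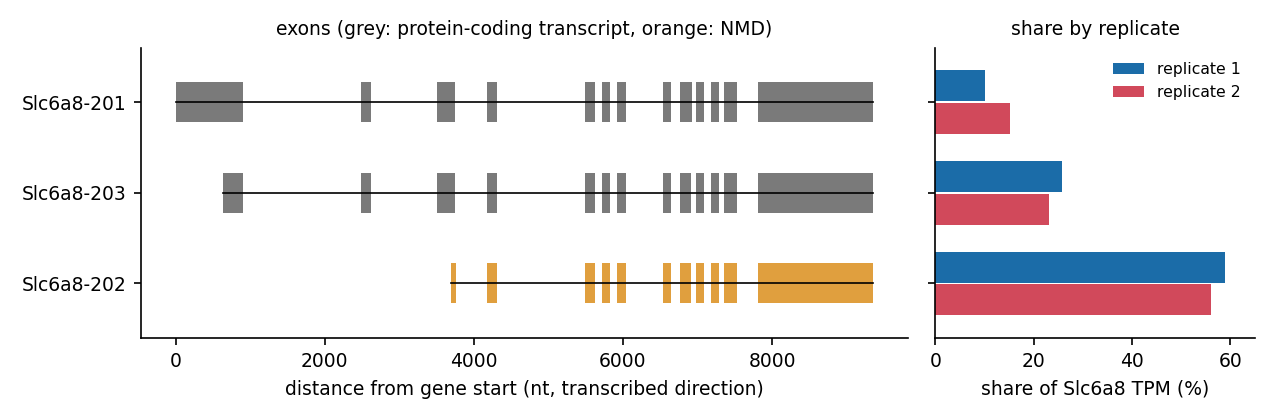
Left, exons of the 3 most abundant Slc6a8 transcripts by distance from the start of the gene in nt, with protein-coding transcripts in grey and the transcript of biotype nonsense-mediated decay in orange. Right, the share of the Slc6a8 TPM in percent held by each in replicate 1 and replicate 2, where Slc6a8-202 holds 59.0% and 56.2%.

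Of the other members, all but Ckmt1 were carried by coding transcripts in both hearts. Ckm, Ckb and Ckmt2 had 1 transcript each in the tables. Gatm-201 held 98.5% and 91.6% of the Gatm TPM. In replicate 2 the noncoding Gatm-203, listed at 0 in replicate 1, was given 6.24%, on 7.99 estimated counts. With the coding transcript alone, Gatm stood at 10.2 and 13.5 TPM. Gamt-202 held 85.8% and 92.1% and the coding Gamt-201 7.09% and 4.99%, while Gamt-204, which retains an intron, held 5.86% and 2.03%. The lead among the 10 Ckmt1 transcripts differed between the hearts, being Ckmt1-210, which retains an intron and held 63.6% of the TPM, in replicate 1 and the coding Ckmt1-202 in replicate 2. By estimated counts Ckmt1-202 led in both, with 3.61 and 9.79.

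None of the members was past 1.5-fold or 2-fold between the hearts at a mean count of at least 100. Of the 7, 6 reached that count, and over all genes that did, 230 of 11959 (1.92%) were past 1.5-fold and 51 (0.426%) past 2-fold. A count of 0 among 6 members is near that background. The median size of the difference over all these genes was 1.07-fold. Folds here are from counts scaled by TMM (trimmed mean of M values), and their 95% intervals (Clopper-Pearson) cover counting error only, as reads are not independent molecules.

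Ckm differed most clearly for its count. It was 1.22-fold higher in replicate 1 (interval 1.198 to 1.251), and the log2 fold of replicate 2 over replicate 1 was -0.29. Among the genes nearest in mean count, the central 95% of log2 folds ran from -0.23 to 0.22, so Ckm lay outside it, and 97.6% of these genes had a smaller fold. Gatm was 1.30-fold higher in replicate 2 (interval 1.16 to 1.46), just past the upper end of its own range at 1.29-fold, with 96.2% of genes of like count showing a smaller fold. On the TPM scale the Gatm difference was 1.43-fold.

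Ckb, Ckmt2, Slc6a8 and Gamt lay within the range of genes of like count. The fold of replicate 2 over replicate 1 was 0.965 (interval 0.931 to 1.00) for Ckb, 1.03 (0.927 to 1.14) for Ckmt2, 0.973 (0.863 to 1.10) for Slc6a8 and 0.986 (0.897 to 1.08) for Gamt. For Ckmt1, below the minimum count, the fold of 2.53 had an interval of 0.916 to 9.54, so a difference was not detectable at this depth. The common biological coefficient of variation, the relative spread between the 2 hearts beyond counting error, was 8.83% over 15735 genes.

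**Figure D3:**
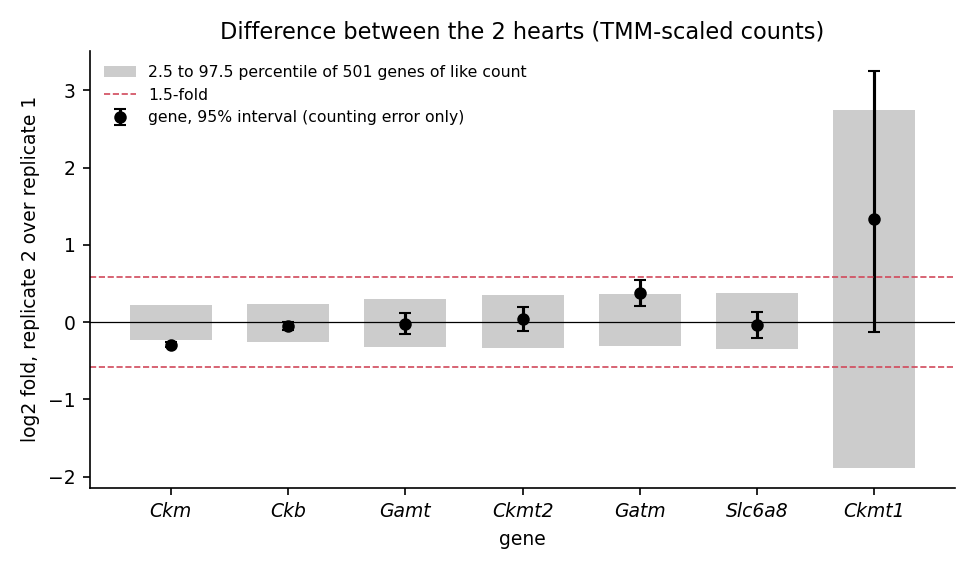
Log2 fold of replicate 2 over replicate 1 for each gene (points) with its 95% interval for counting error (bars), beside the central 95% of the genes nearest in count (grey boxes) and lines at 1.5-fold. Ckm at -0.29 lies below its box, Gatm at 0.38 lies at the top edge of its own, and Ckmt1 has the widest bar.

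Cell type markers moved with these differences in part. Of the 10 cardiomyocyte markers, 8 were higher in replicate 1 by TMM-scaled counts, as Ckm was. Their median log2 fold of replicate 2 over replicate 1 was -0.12 over all 10. On the TPM scale Nkx2-5 stood at 134.49 and 137.49 and Ryr2 at 26.47 and 26.48, so neither was higher in replicate 1. The summed TPM of the 10 was only 1.01-fold higher in replicate 1, since Myl7, the atrial myosin light chain, stood at 4151 and 5776 TPM. A list of 7 ventricular genes, led by Myl2, the ventricular myosin light chain, at 8249 TPM, summed to 15737 and 14705 TPM, 1.07-fold higher in replicate 1. Of these 7 genes 4 were higher in replicate 1. By TMM-scaled counts Cited1, Hey2 and Lbh were 1.08-fold, 1.02-fold and 1.22-fold higher in replicate 2. A list of 7 atrial genes, led by Nppa, the atrial natriuretic peptide, at 5711 TPM, summed to 12820 and 15488 TPM, 1.21-fold higher in replicate 2. Both chamber lists were added after the values had been seen, and the part of the cardiomyocyte and chamber lists in the Ckm difference was not tested. Skeletal muscle also uses Ckm and Ckmt2, and 5 of 12 skeletal muscle markers were at 1 TPM in both hearts, led by Acta1, which the embryonic heart also expresses, at 185 TPM. The other 4 were Tnni2 at 21.3, Mylpf at 10.6, Tnnt3 at 3.79 and Chrng at 1.18 TPM. The sum of the list was 218 and 232 TPM, most of it Acta1. Of the 4 markers at a mean count of at least 100, 3 were higher in replicate 2 and Acta1 was 1.02-fold higher in replicate 1. Below that count, Myh3 had 1 and 54.9 counts, while Chrng had 59 and 33. Of the factors of the lineage, Myod1 was at 0 in both hearts and Myog had 14 and 16 counts. The part of skeletal muscle in the levels of Ckm and Ckmt2 was not tested.

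In both hearts 8 of 8 fibroblast and epicardial markers were detected, led by Col3a1 at 708 TPM. Their sum was 2023 TPM in replicate 2, where Gatm was higher, against 1745 TPM in replicate 1, a 1.16-fold difference. By TMM-scaled counts 6 of the 8 were higher in replicate 2, while Postn and Wt1 were 1.05-fold and 1.03-fold higher in replicate 1. The 10 neuronal and neural crest markers, of which 6 were detected with Ednrb highest at 76.6 TPM, summed to 121 against 100.4 TPM. Most of that sum is Ednrb, at 74.4 TPM in replicate 1 and 78.7 TPM in replicate 2. Of the 7 markers at the count minimum, 3 were past 2-fold higher in replicate 2, Tubb3 at 3.85-fold, Stmn2 at 3.35-fold and Ngfr at 2.29-fold, and the median log2 fold was 0.58. The part of either list in the Gatm difference was not tested. Liver and kidney make creatine in the adult. Of 8 liver markers 2 were detected, led by Apoa2 at 4.12 TPM, with sums of 8.89 and 11.02 TPM, and of 6 kidney tubule markers none was, with sums of 1.12 and 1.27 TPM led by Lrp2, and Slc34a1, Slc22a6 and Umod at 0. Smooth muscle (5 of 6 detected, Acta2 leading), endothelial (7 of 7, Egfl7) and macrophage markers (7 of 7, Lyz2) had sums of 1574 and 1562, 379 and 376, and 187 and 180 TPM. Of the smooth muscle markers Myh11, with 59 and 191 counts, was 3.09-fold higher in replicate 2. The red cell sum, 1.76-fold higher in replicate 1, takes up part of a fixed total. With haemoglobin, mitochondrial, spike-in and Gm42418 rows left out of that total, Ckm stood at 741 TPM and Ckb at 251 TPM.

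**Figure D4:**
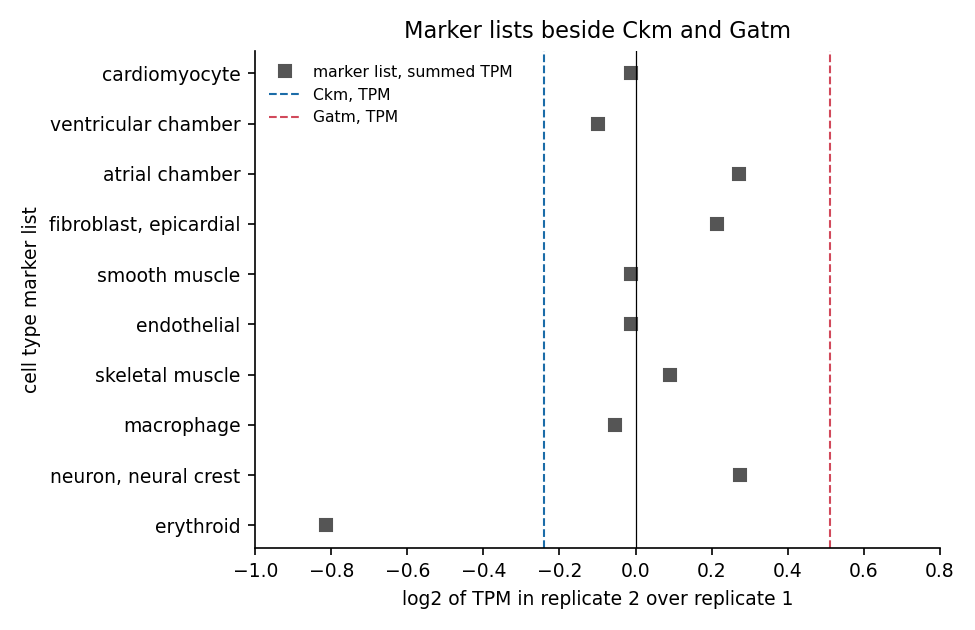
Log2 of the summed TPM of each cell type marker list in replicate 2 over replicate 1 (squares), beside the same for Ckm and Gatm (dashed lines). Erythroid markers lie far to the left, atrial, fibroblast and neuronal lists lie to the right, and the cardiomyocyte list lies near 0.

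Genes around the phosphocreatine circuit were described from lists of related function. A mitochondrial list covered proteins that pass adenylates and phosphate across the membranes, together with the membrane-organising Immt, Chchd3 and Opa1. In both hearts 9 of 9 matched genes of this list were at 1 TPM or above. Their most abundant were Slc25a4, the adenine nucleotide translocase of heart and muscle, at 1801 ± 13.9 TPM, Slc25a5, another translocase, at 928 ± 45.9 TPM, and Slc25a3, the phosphate carrier, at 899 ± 12.7 TPM (SD, n = 2, as for each such value below). Each of these carriers was therefore above Ckm, and far above Ckmt2, whose protein sits beside the translocase in the intermembrane space. Of 9 ATP users and M-band genes 8 were detected. The most abundant were Myh7 and Myh6, the beta and alpha cardiac myosin heavy chains, at 2653 ± 174 and 914 ± 75.5 TPM.

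Other phosphotransfer enzymes were also present. Of 19 adenylate and nucleoside diphosphate kinases and AMP deaminases, 13 were detected. Nme2, a nucleoside diphosphate kinase, stood at 324 ± 13.0 TPM, and the adenylate kinases Ak1 and Ak6 at 268 ± 11.3 and 198 ± 8.27 TPM. Ak1, the cytosolic adenylate kinase of muscle, was thus between Ckm and Ckb in level.

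The substrates of creatine synthesis are arginine, glycine and methyl groups. Of 14 genes of arginine, ornithine and glycine supply, 11 were detected, led by Oat, which converts ornithine, at 153 ± 5.02 TPM, Odc1, which draws on ornithine for polyamines, at 80.9 ± 1.85 TPM, and Phgdh, the first enzyme of serine synthesis, at 63.6 ± 7.39 TPM. Of 13 genes of methyl group supply 11 were detected. Mat2a and Mat2b, the catalytic and regulatory subunits that make S-adenosylmethionine, stood at 185 ± 5.04 and 102 ± 0.0283 TPM, and Ahcyl1, a relative of the enzyme that clears its product, at 50.04 ± 0.255 TPM. All 6 of these genes stood above Gatm, and Ahcyl1 was close to Gamt in level.

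Slc6a8 belongs to the SLC6 family of sodium-coupled transporters. Of 20 other family members and candidate exporters, 5 were detected and 11 were below 0.1 TPM in both hearts. The most abundant were Slc6a6, the taurine transporter, at 32.4 ± 0.820 TPM, Slc16a12, a transporter of another family that carries creatine, at 15.6 ± 0.318 TPM, and Slc6a13, a GABA transporter, at 6.72 ± 0.76 TPM. By gene total Slc6a8 thus lay between Slc16a12 and Slc6a13, while its coding transcripts held 3.44 and 3.54 TPM. No gene of the 6 lists was past 1.5-fold between the hearts at a mean count of at least 100, where 1.92% of all genes were. In the order given here, the lists held 9, 8, 13, 11, 9 and 5 genes at that count, so a count of 0 is near that background.

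**Figure D5:**
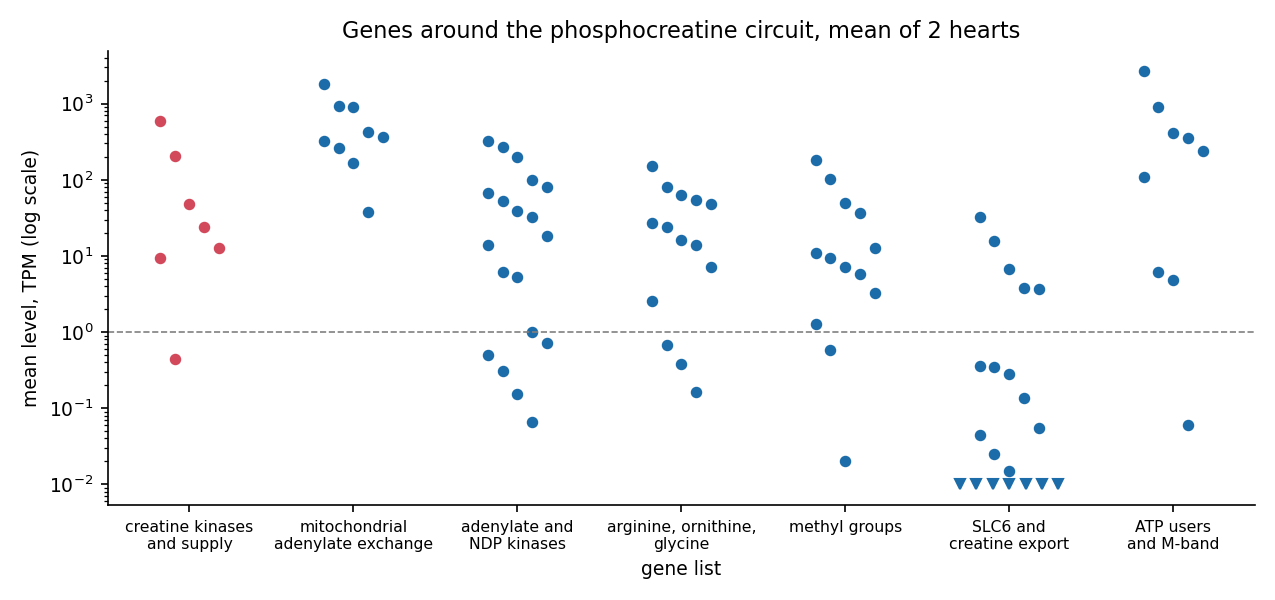
Mean level of each gene in TPM (log axis) in the 7 members (red) and in 6 lists of related function (blue), with a dashed line at 1 TPM and triangles for genes below 0.01 TPM. The genes of the mitochondrial exchange list all lie above the line, led by Slc25a4 at 1801 TPM, while most of the SLC6 list lies below it.

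By level in both libraries, the protein-coding genes nearest to the members included Acadl and Sdhd for Ckm, Zwint and Ech1 for Ckb, Paip1 and Fam49a for Ckmt2, Brpf1 for Slc6a8, Bex2 and Kif1c for Gatm, and Ndfip2 and Cog4 for Gamt. Likeness was the Euclidean distance of log2 TPM over the 2 libraries, which was 0.128 and 0.134 for Ckm and at most 0.0515 for the other members. Acadl, a fatty acid dehydrogenase, stood at 594 and 561 TPM. With 2 points per gene such likeness is a match of level and not of pattern.

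Some annotated genes overlap a member or share sequence with it. The antisense gene A930016O22Rik covers 3952 bp of the Ckm span and stood at 1.65 and 1.19 TPM. The antisense gene 1700119I11Rik covers 613 bp of Ckmt2, at 0.3 and 0 TPM, and Strc covers 10 bp of Ckmt1, at 0.01 and 0 TPM. Whether counting used strand is not given in the sources used here. For Ckb, 42.5% of the 25-base words and 151 of the 1373 words of 100 bases in its transcript also occur in processed pseudogenes, of which Gm12892 shared the most and was given 1.2 and 4.76 counts. For Ckm, 17.1% of the 25-base words and 6.24% of the 100-base words of its annotated transcript Ckm-203 occur in transcripts of other genes. The 25-base words are spread over 1374 genes, and the 100-base words lie in A930016O22Rik alone. The deposited Ckm counts rest on Ckm-201, of 1415 nt, whose words were not counted. No 100-base word of Ckmt1, Ckmt2, Slc6a8, Gatm or Gamt occurs in the transcripts of another gene.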

How the data were processed

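Gene and transcript tables of 2 total RNA libraries were used. The submitters' processing notes name the mm10 genome with GENCODE M4, and no source used here names the aligner or quantifier. Expected counts, TPM, FPKM and isoform percent values were made by the authors and deposited with posterior means and SDs. TPM values were scaled by the authors over all rows, spike-ins included. The expected counts deposited by the authors are estimated reads per gene, not scaled by depth. FPKM values deposited by the authors were used as an alternative only. Transcript percent shares, which the authors also deposited, were recomputed here from TPM. Identifiers without version were matched to GENCODE M21 (GRCm38, the same assembly) for symbols and positions (42462 of 43346 gene rows, 98.0%). Transcript lengths were equal in both annotations for the members except Ckm-201 (1415 against 1235 nt) and Ckb-201 (1478 against 1472 nt), so the coding sequence and word counts of Ckm use Ckm-203.

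Expected counts were rounded and scaled with TMM in edgeR, which also gave the coefficient of variation. Folds used a prior count of 0.5. The same scaling and fold formula, run separately from the code that made the folds, was tested on simulated data. Each library is a separate heart per the labels, which conflict on whether it is 1 embryo, and the spread between them holds technical noise as well. The total depth was 2.85e+07 and 2.90e+07 estimated counts, and 1 count on 1000 nt of effective length is worth 0.0478 and 0.0475 TPM.

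Members and gene lists were chosen with earlier results of these data known. The text names all members, the 3 most abundant genes of each pathway list (and any past 2-fold), the leading marker of each cell type list, the 2 nearest genes in level, and overlapping genes, except that some items are not reported here. Marker genes other than the leading one, the chamber lists and genes sharing sequence with Ckb were named after their values were seen. A planned protein comparison was replaced by coding bases. Of the 7 members 6 matched the RefSeq upstream table. Alternatives covered other scalings, units, pseudocounts, count minimums and each heart alone.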

Additional observations from a re-analysis of the deposited data

How the results depend on the processing

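With posterior mean TPM the log2 ratio of Ckmt2 over Ckmt1 was 4.34, with expected counts not divided by length 6.40, and with a pseudocount of 1 it was 4.13, against 5.82. With counts not divided by length the ratio of Slc6a8 over Gatm was -0.037 and that of Gamt over Gatm 0.62. These follow from the construction of the settings, as Ckmt1 had few counts and the genes differ in length. Genes past 1.5-fold between the hearts numbered 1693 at a mean count of at least 10, 54 at 500 and 7228 with no minimum, and those past 2-fold 666, 11 and 5189. With no minimum 1 member, Ckmt1, was past both folds. The other 58 of 71 recomputed ratios, counts and coefficients of variation moved by less than their limits. These limits were the SD over the 2 hearts for ratios and a factor of 1.5 for counts and coefficients of variation. The 58 include the ratios from each heart alone, which say nothing of stability. With 2 hearts, a single value always lies within that SD of the mean. Spike-in scaling moved the median log2 fold of all genes to 0.11. The log2 fold of Ckm was -0.18 by spike-ins, -0.19 when scaled to cardiomyocyte markers (added after seeing the data), and between -0.24 and -0.29 otherwise. That of Gatm was between 0.37 and 0.51. The folds of Ckb, Slc6a8 and Gamt, all near 0, changed sign between scalings. Slc6a8-203 held 16.7% of the Slc6a8 TPM by posterior means, and Slc6a8-202 53.1%. No paired analysis was possible because there is 1 group. Leaving out a heart leaves no difference between hearts to compute.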
